A study of Mus musculus with 12 samples.

Results

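The genes described here are the nuclear-encoded subunits of the mitochondrial respiratory chain. They were chosen by symbol, as the rows of the count table that begin with Ndufa, Ndufb, Ndufc, Ndufs or Ndufv and a digit, with Uqcr, with Cox4 to Cox8 or with Atp5, or that are Sdha, Sdhb, Sdhc or Sdhd. This gave 83 of 19910 genes, of which 35 belong to complex I, 4 to complex II, 8 to complex III, 20 to complex IV and 16 to complex V. Ndufa4 and its relative Ndufa4l2 were placed in complex IV. The symbols also take in Cox7a2l, a factor that joins complexes into supercomplexes, and Atp5s, which is not a subunit of ATP synthase.

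RNA was sequenced from bone marrow of female C57BL/6J mice aged 6 to 10 weeks that had been infected with a pair of retroviruses, in 4 groups of 3 libraries. EE received EMPTY and EMPTY, SE received SETBP1 D868N and EMPTY, EN received EMPTY and NRAS G12D, and SN received SETBP1 D868N and NRAS G12D, so every group, the control included, carried vectors made in the 293T17 packaging line and harvested at 48 and 72 h. The labels call all the samples, EE included, leukemia cells, and do not say whether the 3 replicates came from separate mice or infections, so the p-values measure the spread between these libraries, which may be technical. The series title places the comparison in MAPK signalling, which mutant NRAS, a small GTPase, activates, and asks of it the part of mutant SETBP1, a nuclear DNA-binding protein.

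The respiratory chain moves electrons from NADH (complex I) and succinate (complex II) through complex III to oxygen at complex IV, and pumps protons across the inner mitochondrial membrane. Complex V, the ATP synthase, uses the return of those protons to make ATP. Most subunits are encoded in the nucleus, the catalytic ones of complex IV are encoded in mitochondrial DNA, and several small subunits of complex IV exist as isoforms from separate genes that differ between tissues. Mature neutrophils are known for carrying few active mitochondria, and dividing progenitors for carrying more.

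Library totals ran from 7085894 to 8864919 counts. Nras stood between 81.4 and 96.5 CPM (counts scaled to library size) in EE and SE libraries and between 1393 and 1680 CPM in EN and SN libraries. Setbp1 was listed at 0 in EE and EN and stood between 0.564 and 0.954 CPM in SE and between 1.41 and 2.12 CPM in SN, so the introduced genes followed the labels. These low Setbp1 levels did not overlap between SE and SN, and the part of this in the comparison of SN with SE was not tested. SE replicate 3 stood apart: its log2 values correlated with those of SE1 and SE2 at 0.946 and 0.953, against 0.984 to 0.991 for other pairs within a group, and it had the fewest genes detected (11835, against 12461 to 12800). Its counts also fell with transcript length, by 0.23 on the log2 scale per doubling of length relative to the other 2 SE libraries. The same slope, each library against the others of its group, ran from -0.04 to 0.05 in EE, EN and SN. Ptprc, the pan-haematopoietic marker CD45, stood between 175 and 329 normalised CPM. The sums of 5 T-cell genes reached at most 0.553 and those of 5 stromal genes at most 1.35. Of these genes, Cd3e, Cd8a, Col3a1, Dcn and Pdgfra were listed at 0. The globin genes Hba-a1, Hbb-bt and Hbb-bs were also listed at 0, and a listed 0 is not read as absence of a cell type.

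The summed RNA levels of marker genes of several cell types also differed between the groups. The summed level of 10 late neutrophil genes ran from 11188 to 12616 normalised CPM in EE, from 5136 to 7326 in SE, from 5868 to 7523 in EN and from 1986 to 2489 in SN. That of 4 early granule genes ran from 23523 to 26140, from 17359 to 19106, from 9212 to 10677 and from 5222 to 5845 in the same order, while 6 proliferation genes ran from 1606 to 1627, from 1344 to 1501, from 1723 to 1828 and from 1651 to 1701. The sums of 7 mast cell and basophil genes ran from 1251 to 1265, from 674 to 856, from 334 to 553 and from 186 to 240, and those of 4 megakaryocyte genes from 190 to 227, from 277 to 594, from 137 to 194 and from 238 to 268. Relative to EE, 5 of the 7 mast cell genes fell in SE and all 7 in EN and in SN. Of the 4 megakaryocyte genes, 2 rose in SE, 1 fell in EN, and 1 rose and 2 fell in SN, and 2 fell in SN relative to SE. Of the 4 early granule genes, 1 fell in SE and 4 in EN and in SN. Of 6 monocyte and macrophage genes, 2 rose in SE, 1 rose and 2 fell in EN, and 2 rose and 1 fell in SN. Relative to EE, 8 of the 10 late neutrophil genes fell in SE, 5 fell and 2 rose in EN and 8 fell in SN, and 6 fell and 1 rose in SN relative to SE. The part of these cells in the subunit results was not tested. In RNA from mixed cells, fewer cells of a type and less RNA per cell cannot be told apart.

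Of the 83 genes, 77 had enough counts to be tested: 34, 4, 8, 15 and 16 from complexes I to V. The other 6 were Ndufs5, Cox7b2, Cox8b and Cox8c, all listed at 0 in every library, Cox7a1, with 1 to 7 counts, and Ndufa4l2, with 0 to 6. Per kilobase of the principal transcript, mean levels over the 12 libraries ran from 3.995 normalised CPM for Atp5l to 1273 for Atp5b, the catalytic beta subunit of ATP synthase, with a median of 143. The median per kilobase was 112 in complex I, 208 in complex II, 189 in complex III, 168 in complex IV and 249 in complex V. Before correction for length, the most abundant members of complexes II to V were Sdha (438 CPM), Uqcrc1 (691), Cox4i1 (510) and Atp5b (2438), on the normalised scale.

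Summed over its members, every complex had its highest group mean in SE. For complex I the sums were 3585 ± 205 normalised CPM in EE (SD, n = 3 here and below), 4306 ± 469 in SE, 3375 ± 239 in EN and 3399 ± 173 in SN. For complex IV they were 2158 ± 185, 2767 ± 355, 2074 ± 175 and 2109 ± 155 in the same order, and for complex III 1720 ± 73, 2069 ± 200, 1719 ± 107 and 1744 ± 48. Complex II gave 1216 ± 16, 1450 ± 198, 1144 ± 35 and 1205 ± 28. In all 5 complexes the 3 SE libraries lay above the 3 EE libraries in these sums, although SE1 was the lowest of the 3 each time and in complex I exceeded the highest EE library by little (3790 against 3788). As a mean of log2 levels over members, SE1 was below EE2 in complex I (6.54 against 6.56) and in complex IV (6.26 against 6.27). With a trend on length and GC content removed, the complex I sums also overlapped (lowest SE 3745, highest EE 3761). Complex V differed in that EN and SN were also above EE, at 6801 ± 120 and 6840 ± 124 against 6368 ± 205, with SE at 7148 ± 366. With libraries scaled to their totals alone that order was lost, at 6672 and 6574 for EN and SN against 6662 for EE. It held with DESeq2-style factors (6800 and 6848 against 6358) and with upper-quartile factors (6701 and 6693 against 6512). With a trend on length and GC content removed it also held (6871 and 6995 against 6293), and SE, at 6999, was then close to SN. That order is one of sums, in which Atp5b alone averaged 2438 normalised CPM. As a mean of log2 levels over the 16 members, the difference from EE was -0.03 in EN and -0.02 in SN, so complex V as a whole was not higher there. In complex V the median change from EE of the 10 subunits of the membrane part and peripheral stalk was -0.04 in EN and 0.01 in SN. For the 5 subunits of the F1 part (catalytic head and central stalk) it was 0.11 and 0.13, and none of those 5 was called.

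**Figure D1:**
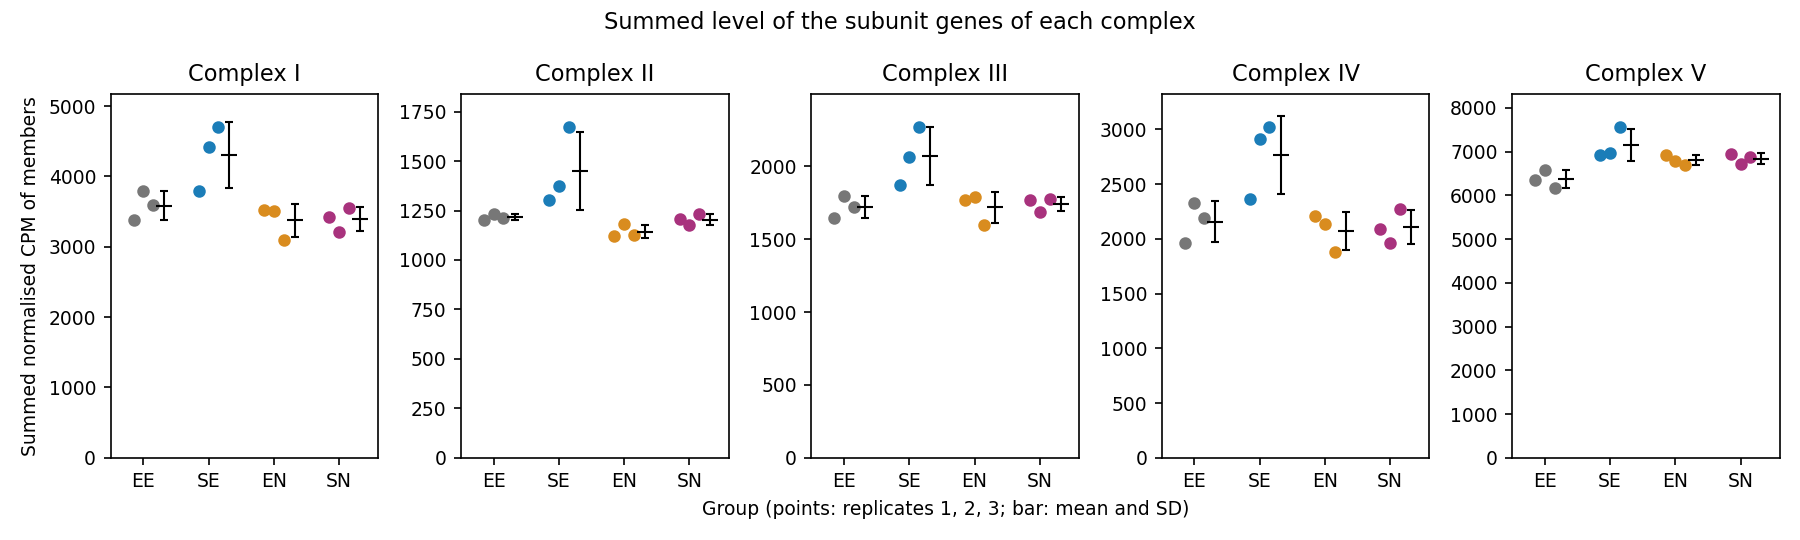
Summed normalised CPM of the tested members of each complex (vertical axis, from 0) in the EE, SE, EN and SN groups; points are the 3 libraries and the bar is the mean with its SD. The 3 SE libraries lie above the 3 EE libraries in each panel, and in complex V the EN and SN libraries also do at this scaling.

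The plot of each gene's deviation from its own mean shows how evenly the subunits shared this. In SE2 and SE3 the median member stood 0.36 above its 12-library mean on the log2 scale, and 69 and 74 of 77 members were above it. In SE1 the median was 0.07 with 54 members above, so the SE libraries were not alike. The lowest library was EN3, with a median of -0.24 and 5 members above, followed by SN2 (-0.21) and EE1 (-0.14), while the remaining EE, EN and SN libraries lay between -0.08 and 0.03. The differences between libraries of 1 group were therefore of the same order as the differences between most groups.

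**Figure D2:**
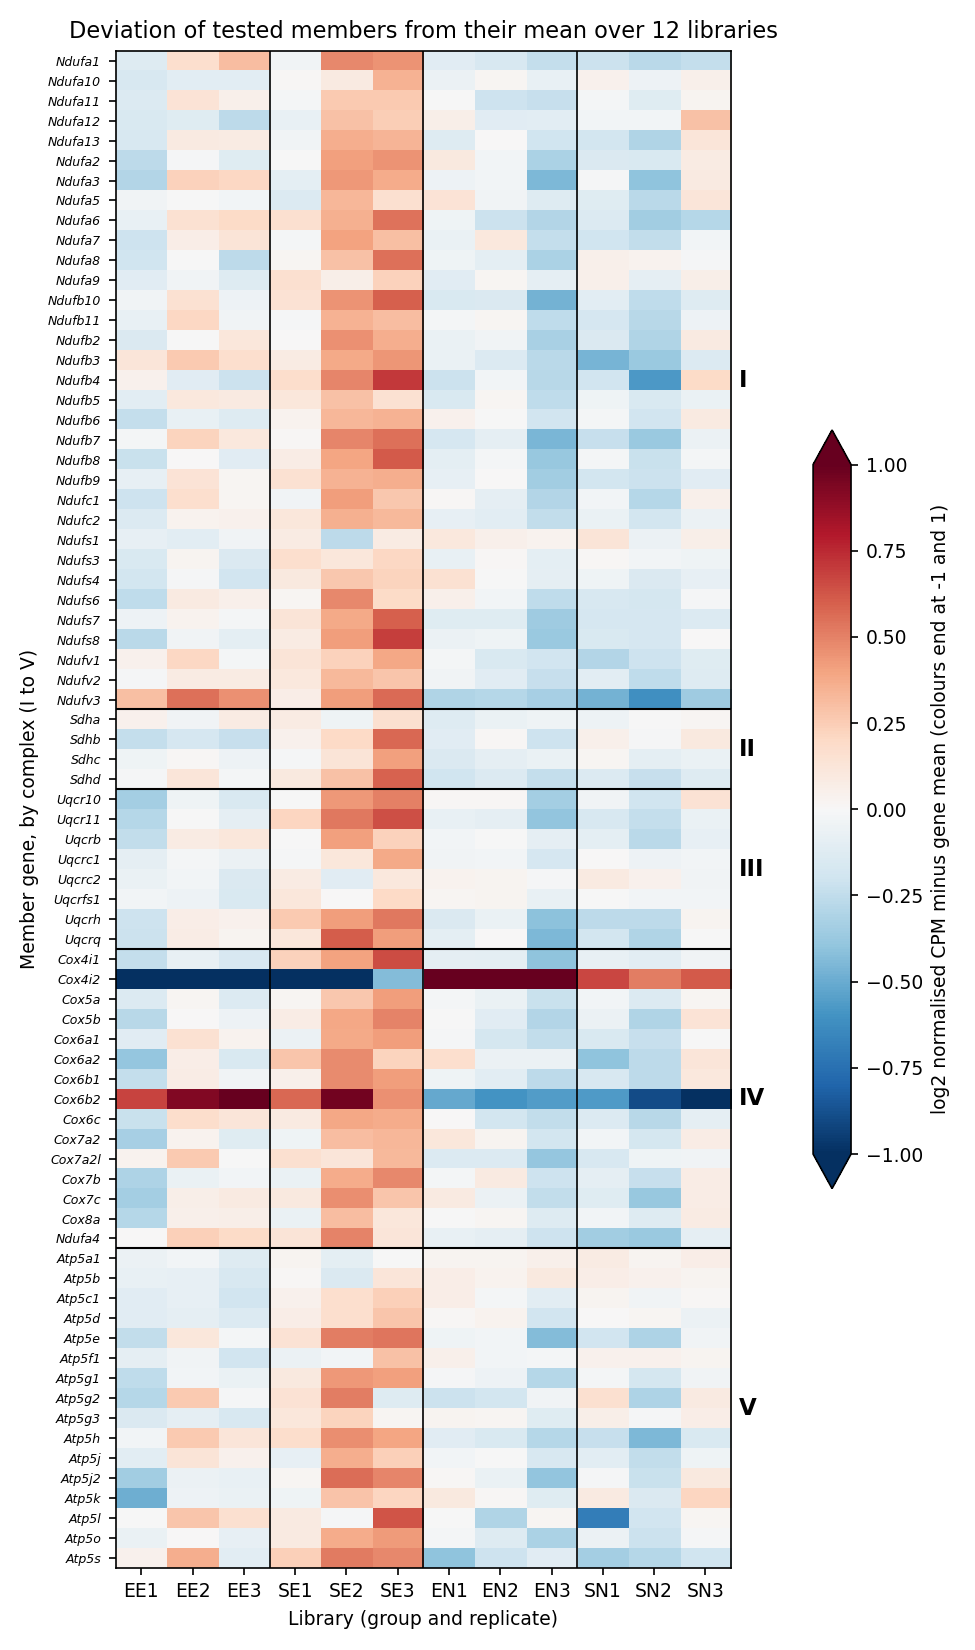
Rows are 76 of the 77 tested members, in complexes I to V, columns the 12 libraries, and colour the log2 normalised CPM (with 0.5 added) minus the gene's mean, with colours ending at -1 and 1. Most rows are above their mean in SE2 and SE3, and Cox4i2, Cox6b2 and Ndufv3 stand out by dividing EE and SE from EN and SN.

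Mutant SETBP1 alone was compared with empty vectors first. In SE, 24 of 77 members rose and none fell relative to EE (edgeR quasi-likelihood test, Benjamini-Hochberg adjusted p under 0.05 over 10993 genes), which is 31.2% of those tested, against 14.9% of all genes called, 8.31% higher and 6.55% lower. The median change of the members was 0.26 on the log2 scale and 75 of 77 were positive, while the median over all genes was -0.01. The genes that rose were 10 of 34 in complex I, 1 of 4 in complex II, 3 of 8 in complex III, 3 of 15 in complex IV and 7 of 16 in complex V, with changes from 0.25 to 0.60. The SE and EE libraries did not overlap in 37 of the 77 members, 23 of them among the 24 called. The same share was not counted over all genes, so the 37 is not read as particular to the subunits. In complex I the genes that rose were Ndufa8, Ndufa9, Ndufa10, Ndufb6, Ndufb8, Ndufb10, Ndufc2, Ndufs4, Ndufs7 and Ndufs8, in complex II Sdhb, in complex III Uqcr10, Uqcr11 and Uqcrh, in complex IV Cox4i1, Cox5a and Cox5b, and in complex V Atp5c1, Atp5d, Atp5e, Atp5g1, Atp5g3, Atp5j2 and Atp5o.

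Cox4i1 encodes the common isoform of subunit 4, the largest nuclear-encoded subunit of complex IV, and lies at chr8:120668225-120674209 (RefSeq, GRCm38.p6). It stood at 423, 474 and 447 normalised CPM in EE1 to EE3 and at 587, 662 and 788 in SE1 to SE3. All SE libraries were above all EE libraries, and the change was 0.60 (SE 0.11, adjusted p = 0.0046), a ratio of 1.52. In EN the levels were 469, 468 and 378 and in SN 474, 465 and 488, within or close to the EE range. Uqcr11, a small accessory subunit of complex III, had a similar profile, with 66.5, 80.8 and 75.8 normalised CPM in EE and 94.1, 117 and 127 in SE (change 0.60, SE 0.12, adjusted p = 0.00936).

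Ndufs8, which holds iron-sulphur clusters in the core of complex I, was at 121, 142 and 136 normalised CPM in EE and at 154, 195 and 236 in SE, with no overlap (change 0.55, adjusted p = 0.0189). Sdhb, the iron-sulphur subunit of succinate dehydrogenase and so of both complex II and the citric acid cycle, was at 253, 265 and 254 in EE and 307, 343 and 445 in SE (change 0.50, adjusted p = 0.0123). Atp5j2, the f subunit in the membrane part of ATP synthase, was at 59.4, 72.5 and 71.8 in EE and 76.6, 112 and 107 in SE (change 0.54, adjusted p = 0.0327). In each of these genes SE1 was the lowest of the SE libraries. With only EE and SE in the fit all 5 genes described missed the threshold, with adjusted p from 0.0530 for Cox4i1 to 0.117 for Atp5j2. The call of Uqcr11 was also lost without EE1, those of Sdhb and Ndufs8 without EE1 or EE3, and that of Atp5j2 without EE1, EE2, EE3, SE2 or SN1. With the length and GC trend removed the change of Ndufs8 was 0.36, and with SE3 left out as well those of Cox4i1, Ndufs8 and Sdhb were 0.35, 0.26 and 0.25.

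Several of the large catalytic subunits were not among the genes called. The catalytic genes Atp5a1 and Atp5b changed by 0.05 and 0.10, Sdha, the flavoprotein of complex II, by 0.04, and Ndufs1 and Uqcrc2 by 0.05 and 0.11, and none was called. Of the 7 nuclear-encoded core subunits of complex I, 2 rose (Ndufs7 and Ndufs8), and of the 27 accessory subunits tested 8 did. In complex V, 3 of 5 subunits of the F1 part rose (Atp5c1, Atp5d and Atp5e, all of its central stalk). Of the 10 of the membrane part and peripheral stalk, 4 rose (Atp5g1, Atp5g3, Atp5j2 and Atp5o). Atp5g1 and Atp5g3 encode the same mature c subunit of the proton-carrying ring.

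These calls depend on the spread pooled over 4 groups and on single libraries. With only EE and SE in the fit no member was called, and the count was 1 without EE1, 2 without EE3, 13 without SE2, 15 without SN1 and 49 without SE1, with the median change between 0.16 and 0.36 in every alternative. Subunit transcripts are short, with a median of 680 bases against 2133.5 for all genes tested, and genes with shorter transcripts tended to be higher in SE (across all 10993 genes, which are not independent, Pearson's r between change and log2 length was -0.26; across the 77 members -0.12). Without SE3 these values were -0.14 and -0.17. With a trend on length and GC content removed 18 members rose, and with SE3 left out as well 15 rose and 1 fell.

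**Figure D3:**
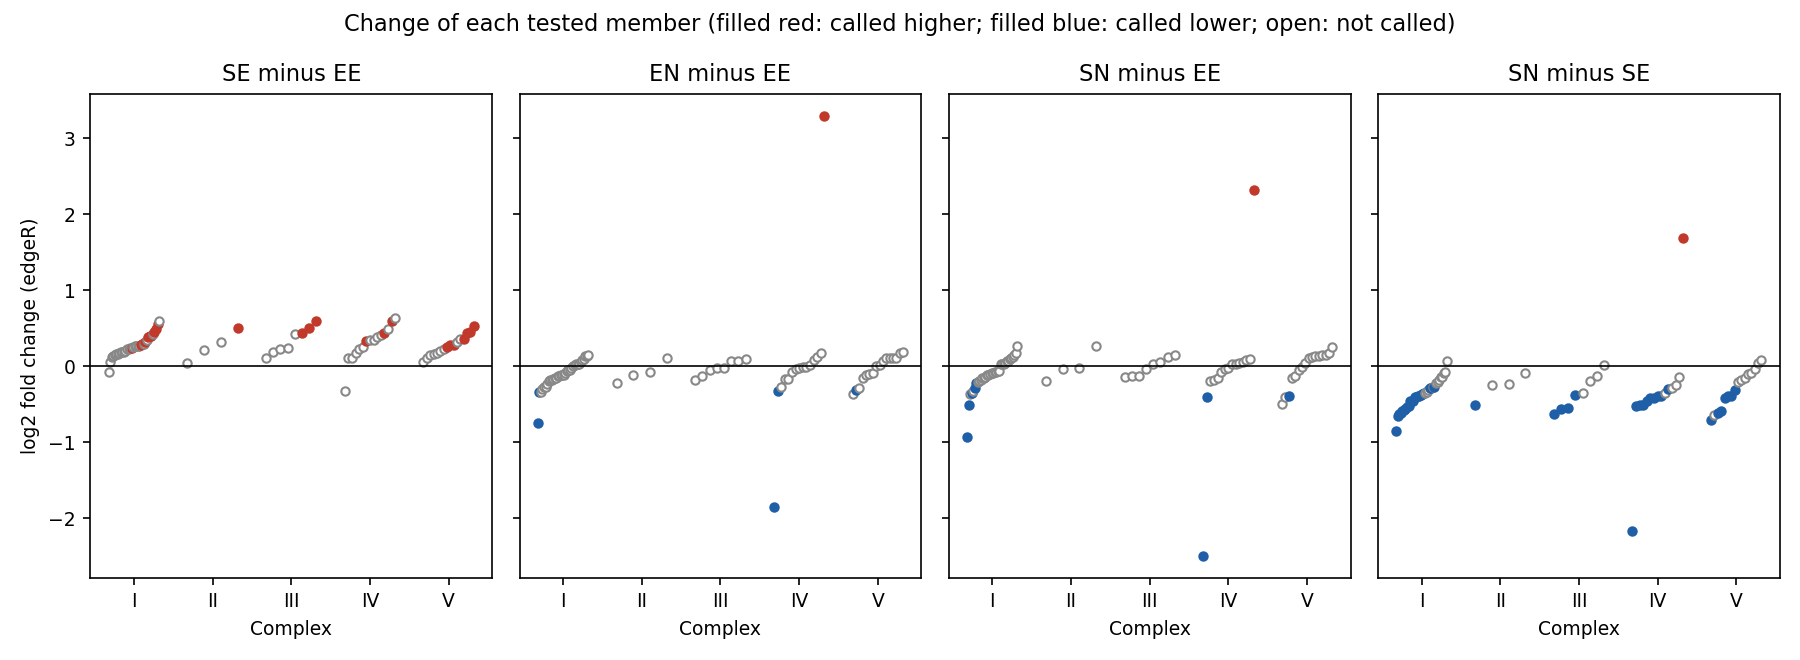
log2 fold change of each tested member (vertical axis) by complex (horizontal axis) in 4 comparisons; red points were called higher, blue points lower, open points were not called. Points in SE minus EE lie mostly above 0 and in SN minus SE mostly below 0, and the isolated points are Cox4i2 (high) and Cox6b2 (low).

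Mutant NRAS alone was compared with empty vectors next. Relative to EE, 6 members changed in EN, 1 higher and 5 lower (7.79% of 77), against 32.5% of all genes, 17% higher and 15.5% lower. The median over the members was -0.06. With both mutants, 9 members changed relative to EE, 1 higher and 8 lower, against 40.6% of all genes, 20.8% higher and 19.8% lower, with a median of -0.04. Both comparisons use the same EE libraries, so their values are set side by side rather than counted as separate support.

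Cox4i2 had the largest change of the members in EN. It encodes the second isoform of subunit 4, known from lung and for its induction by low oxygen, and lies at chr2:152753916-152765039 (RefSeq, GRCm38.p6). Its counts were 9, 6 and 6 in EE, 9, 8 and 16 in SE, 67, 62 and 68 in EN and 33, 32 and 33 in SN. On the normalised scale this was 0.856 ± 0.123 CPM in EE, 1.34 ± 0.479 in SE, 8.62 ± 0.232 in EN and 4.38 ± 0.265 in SN. The 4 groups did not overlap, and the 3 libraries of EN and of SN lay close together.

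The change of Cox4i2 was 3.30 in EN (SE 0.30, adjusted p = 2.32e-06), a ratio of 9.85, and 2.33 in SN (SE 0.31, adjusted p = 5.04e-05), a ratio of 5.01, both relative to EE. In SE it was 0.64 and was not called (adjusted p = 0.235). SN was below EN by a ratio of 0.509 without passing the threshold (log2 change -0.97, adjusted p = 0.0699). Between alternatives that adjusted p ran from 0.00176 to 0.254, and 7 of 27 passed, so the threshold does not settle whether the double mutant differs from NRAS alone. As a share of subunit 4 transcripts per kilobase, Cox4i2 made up 0.200% ± 0.040 in EE, 0.202% ± 0.044 in SE, 2.03% ± 0.26 in EN and 0.952% ± 0.049 in SN, so Cox4i1 remained the main isoform everywhere.

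Cox6b2, the isoform of subunit 6b known from testis (chr7:4751792-4753094), moved the other way. Its counts were 33, 35 and 43 in EE, 28, 35 and 26 in SE, 10, 9 and 10 in EN and 9, 7 and 2 in SN. The libraries with NRAS lay below all those without it. The change relative to EE was -1.85 in EN (SE 0.39, adjusted p = 0.00252) and -2.50 in SN (SE 0.42, adjusted p = 0.000338), and in SE it was -0.33 and was not called. The common isoform Cox6b1 was at 176 ± 18.9 normalised CPM in EE, 167 ± 12.8 in EN and 172 ± 23.4 in SN (changes -0.08 and -0.04, neither called).

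Ndufv3 (chr17:31520115-31531326), an accessory subunit of the NADH-oxidising arm of complex I, had the largest fall of that complex in EN and in SN. Its mean over all libraries was 65.1 normalised CPM, below the complex I median of 90.8. It stood at 77.1, 91.8 and 86.1 normalised CPM in EE and at 65.3, 83.6 and 92.6 in SE, against 50.6, 51.1 and 49.4 in EN and 44.8, 40.6 and 48.7 in SN. No library with NRAS reached the lowest without it. The change was -0.75 in EN (SE 0.13, adjusted p = 0.000423) and -0.93 in SN (adjusted p = 5.28e-05). Its partners in that arm, Ndufv1 and Ndufv2, changed by -0.29 and -0.21 in SN relative to EE (adjusted p = 0.0193 and 0.0458) and were not called in EN.

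Ndufb3, an accessory subunit of the membrane arm, fell to 74.3, 70.8 and 64.6 in EN and 56.2, 60.2 and 70.6 in SN from 84.5, 93.2 and 87.7 normalised CPM in EE (changes -0.34 and -0.50, adjusted p = 0.0336 and 0.00287). Atp5h, the d subunit of the stalk of ATP synthase, fell by 0.31 and by 0.40 on the log2 scale (adjusted p = 0.0365 and 0.00789). Cox7a2l was called only in EN relative to EE (change -0.33, adjusted p = 0.0426; -0.19 in SN, not called). Ndufa6 and Ndufa4 were called in SN relative to EE (changes -0.35 and -0.41) and not in EN, where Ndufa4 changed by -0.27; the EN and SN values of none of these genes were shown to differ. The EN call of Ndufb3 was lost without EE1, EE2, EE3, EN2 or EN3 (adjusted p up to 0.118), that of Atp5h without EE2, EE3, any EN library or SN1 (up to 0.147), and that of Cox7a2l without EE1, EE2, or any EN or SN library (up to 0.176), and also with no count filter or with the length and GC trend removed. The SN call of Ndufa4 was lost without SN2. Those of Ndufv3, Cox4i2 and Cox6b2 held in each of the 28, 27 and 27 alternatives that gave a value.

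The number of small changes in the NRAS groups depended on scaling. In EN, 17 members (1 higher, 16 lower) were called when libraries were scaled to their totals alone, 14 (2 higher, 12 lower) with the length and GC trend removed, 14 (2 higher, 12 lower) without SE3, 16 (2 higher, 14 lower) with only EE and EN in the fit, and 3 without EE2, EN2 or EN3. In SN, 21 (1 higher, 20 lower) were called with library totals, 20 (9 higher, 11 lower) with the trend removed, 18 (6 higher, 12 lower) without SE3, 26 (7 higher, 19 lower) with only EE and SN, and 5 without SN2.

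**Figure D4:**
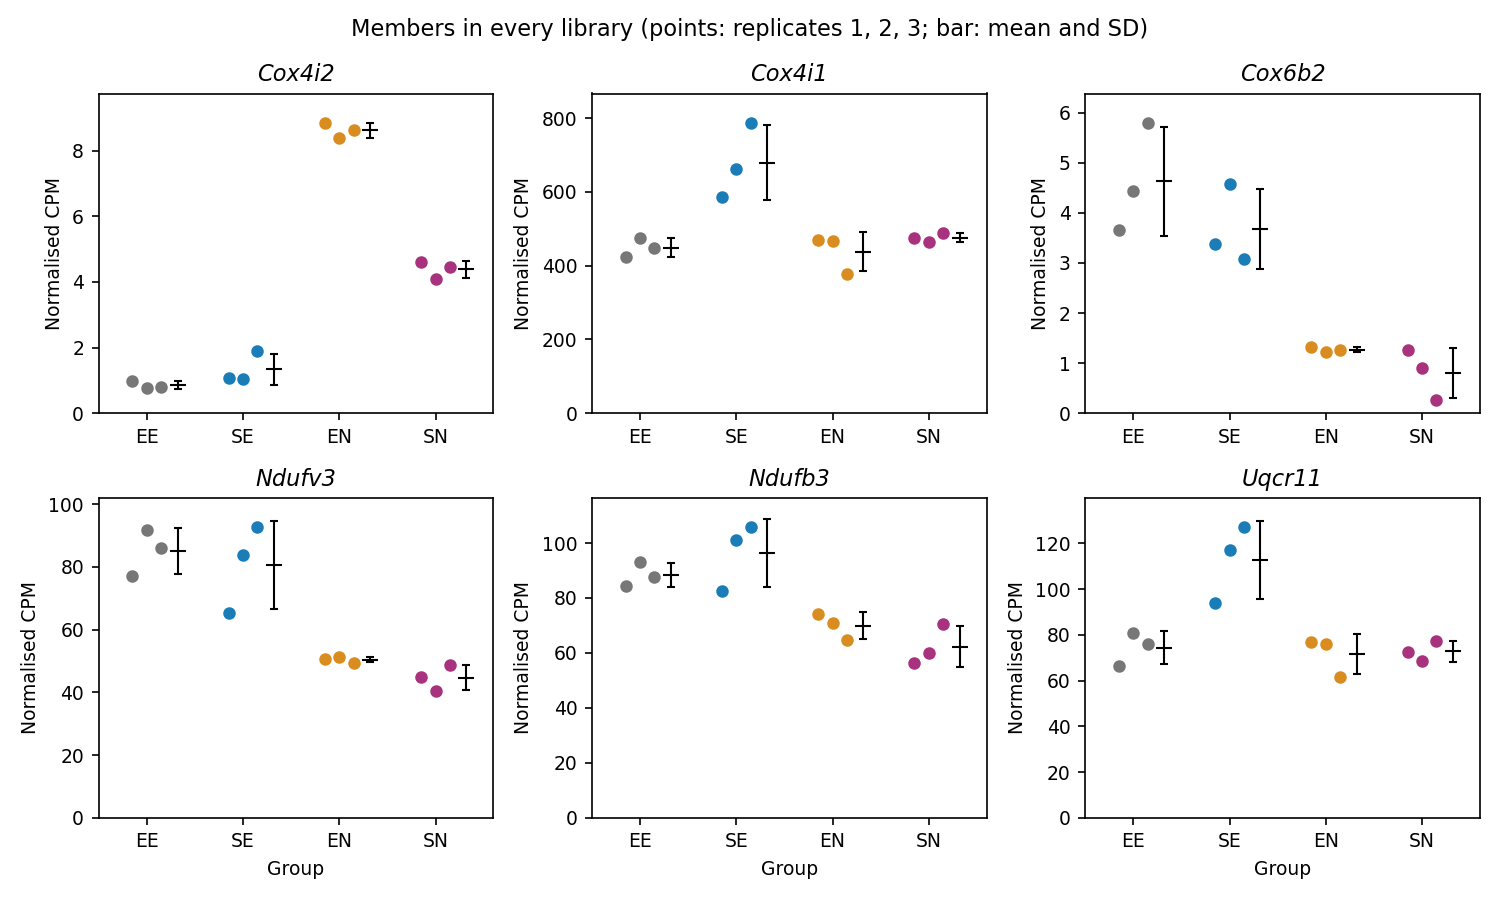
Normalised CPM (vertical axes, from 0) of Cox4i2, Cox4i1, Cox6b2, Ndufv3, Ndufb3 and Uqcr11 in the EE, SE, EN and SN groups; points are the 3 libraries, bars the mean and SD. Cox4i2 is high and Cox6b2, Ndufv3 and Ndufb3 are low in EN and SN, while Cox4i1 and Uqcr11 are high in SE.

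Both mutants were then compared with mutant SETBP1 alone. In SN relative to SE, 44 of 77 fell and 1, Cox4i2, rose, which is 58.4% of those tested, against 42.4% of all genes called, 20.9% higher and 21.5% lower. The median change was -0.37 and 72 of 77 were negative, while the median over all genes was -0.0046. The genes that fell were 22 of 34 in complex I, 1 of 4 in complex II, 4 of 8 in complex III, 10 of 15 in complex IV and 7 of 16 in complex V. This comparison shares the SE libraries with the first, and SN itself had a median change of -0.04 from EE.

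The largest fall in each complex was that of Ndufv3 in complex I (-0.85, adjusted p = 0.000126), Sdhd in complex II (-0.51, adjusted p = 0.00137), Uqcr11 in complex III (-0.63, adjusted p = 0.00122), Cox6b2 in complex IV (-2.16, adjusted p = 0.00121) and Atp5s in complex V (-0.71, adjusted p = 0.00361). Sdhd, which anchors complex II in the membrane, was at 392.2, 451 and 553 normalised CPM in SE and 334, 312 and 335 in SN, with 363, 400 and 361 in EE. Cox4i1 fell by 0.51 on the log2 scale (adjusted p = 0.00165), and by 0.30 with the length and GC trend removed. With SE3 left out as well, the changes of Cox4i1 and Sdhd were -0.22 and -0.25. The SE and SN libraries did not overlap in 42 of the 77 members, 36 of them among the 45 called. That share, too, was not counted over all genes, so the 42 is not read as particular to the subunits either.

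By position in the complexes, in complex I, 4 of 7 core subunits fell (Ndufs7, Ndufs8, Ndufv1 and Ndufv2) and 18 of 27 accessory ones. In complex V, 1 of 5 subunits of the F1 part fell (Atp5e) and 5 of 10 of the membrane part and peripheral stalk. Ndufs1, Uqcrc2, Atp5a1 and Atp5b again changed little (0.07, 0.01, 0.08 and 0.05, none called). A difference between core and peripheral subunits was not tested. The count called was 26 without SN2 and 29 without SE2, and ranged from 26 to 63 over all alternatives, with the median between -0.50 and -0.23.

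SN and EN share mutant NRAS and differ in mutant SETBP1. No member was called between them (edgeR; 1 at an unadjusted p under 0.05, and 1, Cox4i2, with each of DESeq2 and limma-voom), against 1.91% of all genes, and the median change was 0.02. The test of the difference itself, the SETBP1 change with NRAS minus the change without it, called no member either (edgeR; 18 at an unadjusted p under 0.05, 0 with DESeq2 and 0 with limma-voom, 4 with limma-voom and quality weights), against 0.0455% of all genes. Its median over the members was -0.28, with 75 of 77 negative, and the lowest adjusted p was 0.208, for Cox4i2. With so few of all genes called in these tests, the lack of called members is not read as particular to the subunits. Nor does it show that SN and EN were alike.

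The isoform pairs of complex IV gave the following levels per kilobase over all libraries. Cox6a1, the widespread form, was at 423 and Cox6a2, the form of heart and skeletal muscle, at 16.3 normalised CPM. Cox6b1 was at 302 and Cox6b2 at 4.44, Cox7a2 at 209 and Cox7a1, the muscle form, at 1.20. Cox7b was at 118 with Cox7b2 listed at 0, and Cox8a at 265 with Cox8b and Cox8c listed at 0. Ndufa4 was at 281 and Ndufa4l2, known for its induction by low oxygen, at 0.359. The widespread form was thus the higher of every pair. Besides the calls already given for Cox4i1, Cox4i2, Cox6b2, Cox7a2l and Ndufa4, the genes Cox6a1, Cox6a2, Cox6b1 and Ndufa4 fell in SN relative to SE by 0.39, by 0.51, by 0.42 and by 0.52 on the log2 scale. The Cox6a2 call was lost in 15 of 28 alternatives, and those of Cox6a1 and Cox6b1 without SE2, SN1 or SN2.

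Promoter sequences are shown for 4 genes described above that rose in SE and 2 that were lower in EN and SN, to set their regulatory letters side by side. They are the 250 bases before the gene start in RefSeq (GRCm38.p6), 5′ to 3′ on the gene's strand. Capitals mark matches, on either strand, to motifs of factors known for controlling respiratory genes: NRF1 (GCATGCGC), ETS factors such as GABPA (CCGGAAG) and YY1 (AAGATGGC). No window shown holds more than 1 match, so no matches overlap. The Ndufs8 window lies at chr19:3912775-3913024 and that of Atp5j2 at chr5:145191542-145191791, both on the minus strand. Sdhb lies at chr4:140961021-140961270 on the plus strand, Uqcr11 at chr10:80406822-80407071 on the minus strand, Ndufv3 at chr17:31519865-31520114 on the plus strand and Cox6b2 at chr7:4753095-4753344 on the minus strand.
Sdhb: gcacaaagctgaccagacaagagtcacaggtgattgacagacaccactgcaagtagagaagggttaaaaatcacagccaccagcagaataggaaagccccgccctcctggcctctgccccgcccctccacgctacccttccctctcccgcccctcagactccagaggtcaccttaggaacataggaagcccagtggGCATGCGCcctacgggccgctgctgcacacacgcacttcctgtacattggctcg
Uqcr11: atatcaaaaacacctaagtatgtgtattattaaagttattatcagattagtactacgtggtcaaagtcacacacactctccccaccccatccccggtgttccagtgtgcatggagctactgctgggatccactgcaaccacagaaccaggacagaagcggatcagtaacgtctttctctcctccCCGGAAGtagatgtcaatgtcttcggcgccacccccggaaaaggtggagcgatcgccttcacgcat
Ndufs8: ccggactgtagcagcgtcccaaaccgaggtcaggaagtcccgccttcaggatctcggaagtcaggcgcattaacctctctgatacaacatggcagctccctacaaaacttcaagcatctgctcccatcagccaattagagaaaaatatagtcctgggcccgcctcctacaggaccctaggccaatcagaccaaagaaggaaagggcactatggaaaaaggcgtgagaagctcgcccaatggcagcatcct
Atp5j2: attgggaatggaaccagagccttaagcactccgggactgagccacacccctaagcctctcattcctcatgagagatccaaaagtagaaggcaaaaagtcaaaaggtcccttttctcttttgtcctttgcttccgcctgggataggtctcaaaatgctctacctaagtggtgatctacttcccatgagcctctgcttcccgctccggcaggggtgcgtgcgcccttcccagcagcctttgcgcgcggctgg
Ndufv3: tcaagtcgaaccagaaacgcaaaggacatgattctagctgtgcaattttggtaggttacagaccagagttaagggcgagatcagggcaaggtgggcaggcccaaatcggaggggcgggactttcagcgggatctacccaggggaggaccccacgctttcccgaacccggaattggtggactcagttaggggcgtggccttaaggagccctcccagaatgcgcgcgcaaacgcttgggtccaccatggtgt
Cox6b2: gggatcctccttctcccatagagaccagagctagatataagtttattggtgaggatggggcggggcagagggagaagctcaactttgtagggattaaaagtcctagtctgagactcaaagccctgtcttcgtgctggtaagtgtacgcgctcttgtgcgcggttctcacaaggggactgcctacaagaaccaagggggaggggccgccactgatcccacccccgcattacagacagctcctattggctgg
In these windows Sdhb held an NRF1 match 54 bases before the start and Uqcr11 an ETS match 66 bases before it, and the windows of the other 4 genes, Ndufs8, Atp5j2, Ndufv3 and Cox6b2, held none of the 3 motifs.

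Of the 83 members, 68 had at least 1 promoter in the RefSeq table, 73 promoters in all, each taken with 50 further bases after the start. With those bases included, Ndufs8 held an ETS match and Atp5j2 a YY1 match. Sdhb and Uqcr11 then each held both an NRF1 and an ETS match, and Ndufv3 and Cox6b2 still held none. The NRF1 motif was in 10 of 73 member promoters (13.7%), against 2.71% of all 32851 promoters of that length. The ETS motif was in 16 (21.9%, against 8.86%) and the YY1 motif in 10 (13.7%, against 2.75%), and any of the 3 in 30 (41.1%, against 13.3%). Among genes, 12 of 23 that rose in SE held a match and 18 of the other 45 did. The shares describe letters only.

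Genes for these factors and other regulators of mitochondrial content were also measured. Myc, whose product drives growth and mitochondrial genes, was higher than in EE by 0.35 in SE, 0.24 in EN and 0.36 in SN (adjusted p = 0.0109, 0.0238 and 0.00153). Gabpa rose by 0.25 in EN (adjusted p = 0.0466) and was not called in SE or SN, and its exons overlap those of Atp5j on the other strand. Nrf1, Tfam, Esrra and Ppargc1b were called in no comparison, and the coactivator Ppargc1a had 0 to 2 counts in a library. Of the 14 regulators tested, 2 rose and 1 fell in SE, 4 and 1 in EN, and 3 and 1 in SN, relative to EE. These are 21.4%, 35.7% and 28.6% called, against 14.9%, 32.5% and 40.6% of all genes. The number called was 1 in SE without any single EE library, 2 or 3 in EN without 1 EE or EN library, and 2 in SN without EE2, EE3 or SN2.

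Other mitochondrial gene lists gave different counts from the subunits. Of 77 mitochondrial ribosome genes, which make the subunits encoded in mitochondrial DNA, 28 rose and none fell in SE, 28 rose and none fell in EN, and 36 rose and 1 fell in SN, all relative to EE, with medians of 0.31, 0.18 and 0.22. The shares called were 36.4%, 36.4% and 48.1%, against 14.9%, 32.5% and 40.6% of all genes. In SN relative to SE, 9 rose and 14 fell, 29.9% against 42.4% of all genes. The subunits had medians of 0.26, -0.06 and -0.04 in the same order. The difference between the lists was not tested. Mrps6 rose by 0.68, 1.13 and 1.45 in SE, EN and SN. The ribosome count in SE fell to 0 with only EE and SE in the fit, to 8 without EE1 and to 9 without EE3, and was 53 without SE1. In EN it was 13 without EE1, 17 without EE3, 15 without EN1 and 14 without EN2, and in SN relative to SE the 23 called became 15 without SN1.

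Of 47 respiratory chain assembly factors, 6 rose in SE, 4 rose and 2 fell in EN, and 9 rose and 5 fell in SN relative to EE. Called in all were 12.8%, 12.8% and 29.8%, against 14.9%, 32.5% and 40.6% of all genes. Foxred1, an assembly factor of complex I, fell by 0.55 in EN and by 0.65 in SN on the log2 scale, and Cox20, of complex IV, by 0.73 and by 0.64. Of 21 genes of the citric acid cycle and pyruvate entry, 2 rose and 1 fell in SE, 5 and 4 in EN, and 8 and 4 in SN. Beside the same shares of all genes, 14.3%, 42.9% and 57.1% of this list were called. Mdh2, malate dehydrogenase, rose by 0.45 and 0.61 in EN and SN, while Mpc2, of the mitochondrial pyruvate carrier, fell by 0.65 and by 0.85. Of 11 genes of coenzyme Q synthesis, 1 rose in SE, 4 rose and 2 fell in EN, and 5 rose and 3 fell in SN. Their shares called were 9.09%, 54.5% and 72.7%. Of 6 subunit, carrier and related genes that the symbol rule misses, Ndufab1 (0.50), Cox14 (0.50) and Cycs (0.45), the electron carrier cytochrome c, rose in SE, and none fell. They are 50% of the 6, against 14.9% of all genes called in SE.

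The counts of these smaller lists rested on single libraries. Of the assembly factors, none was called in SE without EE1 or EE3 and 19 without SE1. In EN, 3 were called without EE3, EN1 or EN2, 12 without SE1 and 17 without SE3, and in SN 9 without SN1 and 22 without SE3. Of the citric acid cycle genes, 10 were called in SE without SE1 and none without any single EE library, SE3, EN1, EN2 or SN1, and in EN 5 without EN2. For coenzyme Q synthesis the SE count was 2 without SE1 and 0 without any single EE library or SE3, the EN count was 3 without EE2, and the SN count was 5 without EE2 or SN3. Of the genes the symbol rule misses, 1 was called in SE without EE1, none without EE3 and 5 without SE1.

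**Figure D5:**
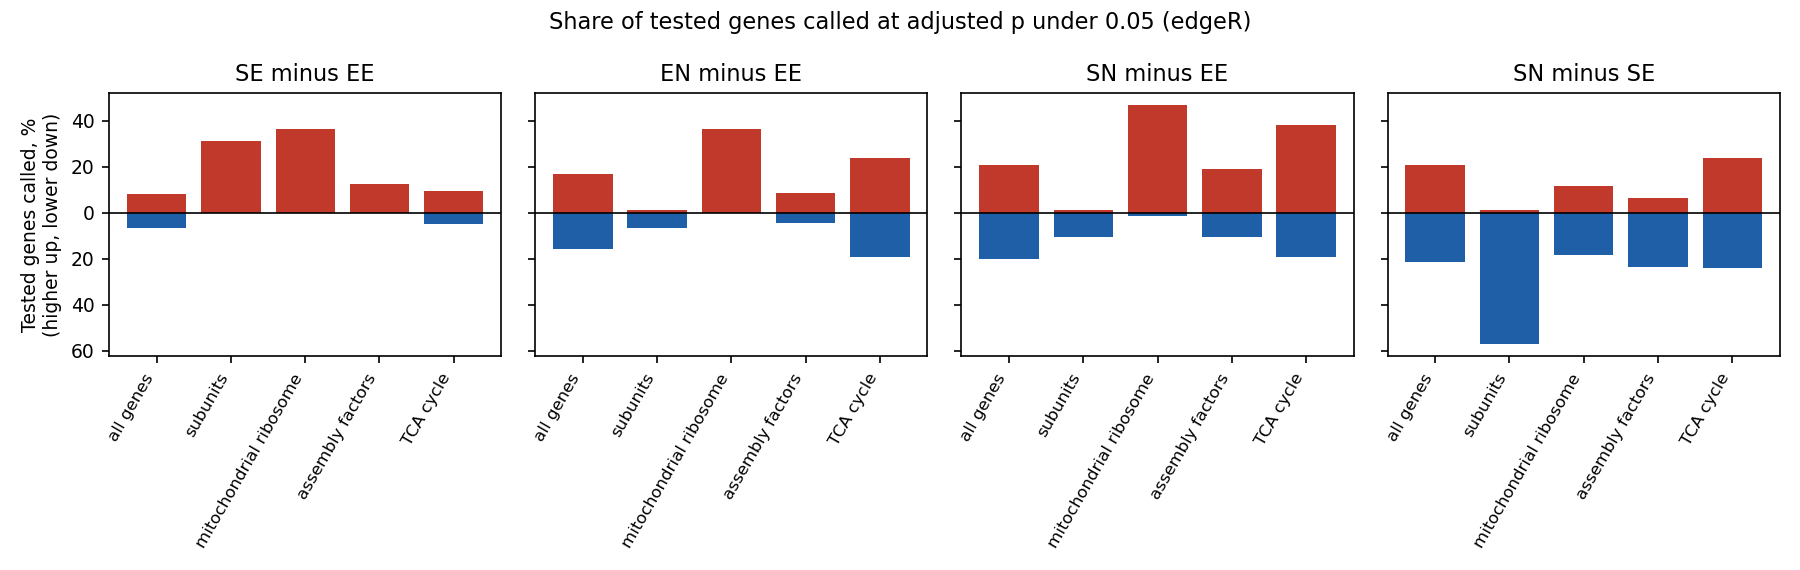
Share of tested genes (vertical axis, %) called higher (red, above 0) or lower (blue, below 0) in 4 comparisons, for all 10993 genes, the 77 subunits, 77 mitochondrial ribosome genes, 47 assembly factors and 21 genes of the citric acid cycle and pyruvate entry. In SE minus EE the subunit and ribosome totals are 31.2% and 36.4%, and in EN minus EE and SN minus EE the subunit totals are below those of all genes.

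Several members share sequence with pseudogenes or neighbours, so their counts are uncertain where the counting rule, which is not given, drops or splits shared reads. Of the 50-base stretches of Atp5l, 84.8% also occurred in GENCODE transcripts of other genes, and Atp5l had the lowest level per kilobase of the tested members. The share was 45.6% for Atp5o, 43.4% for Uqcrb, 39.7% for Ndufs3, 38.3% for Atp5g2, 37.0% for Ndufb4 and 36.9% for Atp5h. It was 12.3% for Cox4i1, whose exons overlap those of Emc8 on the other strand, 10.9% for Uqcr11 and 6.72% for Ndufb3. Ndufs5, a complex I subunit of every cell, was listed at 0 in all libraries, and 21.7% of its stretches were shared. Its 0 is not read as absence of expression.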

How the data were processed

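RNA-seq of 12 mouse bone marrow samples, 4 groups of 3, was used as the authors deposited it: 1 table of whole-number counts for 19910 genes. The submitters' processing notes name STAR, DESeq2 and mm10, with no role or order; the counting rule, its treatment of shared reads and strand are not given in the sources used here. Groups were taken from the vector labels. The members, gene lists and tests were chosen with earlier results of these data known.

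Counts were analysed with edgeR 4.0.16 (R 4.3.3): genes passing filterByExpr (minimum count 10, total 15) were kept (10993), scaled by TMM and fitted with 1 mean per group over all 12 libraries. Quasi-likelihood F-tests were adjusted by Benjamini-Hochberg over all tested genes, with a threshold of 0.05. Normalised CPM used TMM library sizes, which do not tell a change in total RNA per cell from none. Fits were tested on simulated data. Named members were the called one with the largest change in each direction, complex and comparison, those called in at least 3 of 5 pairwise comparisons, the most abundant of each complex and the isoforms of complex IV; of other lists, at most 2 genes per direction, and 7 regulators. Others named, such as the catalytic subunits and role groups, were chosen after their values were seen. Alternatives used DESeq2 1.42.0, limma 3.58.1 (voom), other scalings and filters, a replicate block, a length and GC trend, and leaving out each library.

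Sequences and gene positions came from RefSeq (GRCm38.p6). The subunits encoded in mitochondrial DNA were not analysed here. 1 member entered all fits, sums and counts but is not reported by name or drawn in the plot of deviations.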

Additional observations from a re-analysis of the deposited data

How the results depend on the processing

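With 3 libraries per group, small changes were near the limit of detection, and precision for Cox4i2 and Cox6b2 was limited by counts under 70. For the named members, no called value changed sign under any of 890 alternatives to 32 called values, of which 803 kept the call and 87 lost it. Those members were named in part for their large changes, so this does not give the stability of all member calls. Of all 24 members called in SE relative to EE, 1 stayed called without EE1, 2 without EE3 and 0 with only the groups compared. The median change of the members stayed between 0.16 and 0.36 in SE relative to EE and between -0.50 and -0.23 in SN relative to SE.

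The number of members called moved by more than 1.5 times as follows, the cause not being tested. For SE relative to EE (24) it was 37 with limma-voom quality weights, 0 with only the groups compared and 2 at an adjusted p of 0.01, and 1 to 49 on leaving out 1 library. For EN relative to EE (6) it was 18 with quality weights, 17 with library totals, 13 with upper-quartile factors, 14 with the length and GC trend removed, 16 with only the groups compared and 3 at 0.01, and 3 to 14 on leaving out 1 library. For SN relative to EE (9) the same settings gave 23, 21, 14, 20, 26 and 5, and 5 to 18 on leaving out 1 library. For SN relative to EN (0) it was 1 with DESeq2, limma-voom, quality weights, library totals or only the groups compared, and 0 to 1 on leaving out 1 library. For SN relative to SE (45) it was 26 at 0.01, and 26 to 59 on leaving out 1 library. For the interaction (0) it was 4 with quality weights. Leaving out SE3 and removing the trend, chosen after seeing the data, gave 28 for EN relative to EE, 29 for SN relative to EE and 1 for SN relative to EN.

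The replicate numbers did not pair the libraries: deviations of same-numbered libraries correlated between -0.127 and 0.124 (18 pairs), and those of other libraries between -0.141 and 0.160. With a replicate block 12 members were called in SE relative to EE, 4 in EN, 7 in SN, 40 in SN relative to SE, and 0 in SN relative to EN and in the interaction. The block ended the calls of Atp5h and Cox7a2l in EN relative to EE, of Atp5j2 in SE relative to EE, and of Atp5j2 and Cox6a2 in SN relative to SE (adjusted p 0.0550 to 0.0641). With the block and the trend together the counts were 13, 13 and 19 for SE, EN and SN relative to EE.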
